A study of Mus musculus with 13 samples.

Results

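The genes that write, copy and remove DNA methylation were followed across mouse fibroblasts, Sertoli-like cells induced from them, and native gonad and Sertoli cells. The members were Dnmt1, Dnmt3a, Dnmt3b, Dnmt3l, Uhrf1, Hells, Tet1, Tet2, Tet3 and Tdg. They were chosen by name, as every array feature that the platform annotation assigns to these 10 genes, which gave 21 of the 62976 features and 10 of the 20738 annotated genes. All 10 genes passed the filter on dim signal. RNA was measured on 13 single-colour Agilent arrays in 7 groups. Mouse embryonic fibroblasts (MEF, 2 arrays) carried an empty vector, and tail tip fibroblasts (TTF, 2 arrays) carried tdTomato. Both were wild type and were kept for 3 passages in 10% serum. Cells called induced embryonic Sertoli cells (ieSC) carried the transgenes Nr5a1, Wt1, Dmrt1, Gata4 and Sox9, and were held for 6 months in 2% serum with doxycycline. The starting cells were TTF for 2 arrays (TTF-ieSC) and MEF for 1 array (MEF-ieSC). The native groups had no transgene and were wild type: uncultured male gonad at 14.5 dpc, immature Sertoli cells of the 19 dpc testis grown for 3 days, and mature Sertoli cells of the testis at 8 weeks grown for 7 days, with 2 arrays each. Serum and time in culture differ between the groups along with the cells, and effects of the factors and of culture cannot be told apart. The labels give no strain, and they do not say whether the induced cells were clones or whether arrays of a group came from separate cultures or animals. The p-values thus reflect array-to-array spread alone, possibly of technical origin.

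Methyl groups are placed on cytosine of CG pairs by the Dnmt3 enzymes and copied to the new strand at each replication by Dnmt1. Uhrf1 reads hemimethylated DNA behind the replication fork and brings Dnmt1 there, and Hells is a chromatin remodeller needed for methylation of packed DNA. Dnmt3l has no catalytic activity and stimulates Dnmt3a and Dnmt3b, chiefly in germ cells and early embryos. The Tet enzymes oxidise methylcytosine, and Tdg cuts out its most oxidised forms so that repair can restore cytosine. In the fetal testis, germ cells first lose and then regain methylation, while Sertoli cells divide until after birth and then stop.

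Values were deposited log2 signals, in which a difference of 1 is a 2-fold change. The array median was 7.488 and the 75th percentile 10.473, each taken as the median over the 13 arrays, and values near the array median are dim. Levels of different genes are not compared with each other, since features differ in brightness for the same amount of RNA. The spread between replicate arrays (root mean square, log2) was 0.167 to 0.310 over 16658 tested genes, and for the members the widest gap between replicates was 0.29, for Uhrf1 in immature Sertoli cells. Of 13 fibroblast markers all 13 lay above the array median in MEF, TTF and the native groups, and 6 did in TTF-ieSC and in MEF-ieSC. Of 17 Sertoli markers, 5 of them the transgenes, 14 lay above it in both kinds of induced cells, 13 in MEF and 10 in TTF. From TTF 12 of the 17 rose and 2 fell (median 1.09), and from MEF 10 rose and 3 fell (median 1.43). Their summed signal (log2), which the brightest genes dominate and which holds the transgenes, was 19.85 to 19.86 in TTF-ieSC and 19.37 in MEF-ieSC. It was 19.64 to 19.65 in gonad and 14.95 to 15.69 in fibroblasts. Their mean log2 signal was 11.8 in TTF-ieSC and 11.37 in MEF-ieSC, against 13.98 to 14.02 in gonad. Some markers stayed low. The fetal Sertoli hormone gene Amh was 7.30 to 7.42 in induced cells, under the median, against 12.33 and 12.36 in gonad. Cldn11, a tight junction gene of Sertoli cells, was 8.07 to 8.39 in induced cells against 15.43 to 15.63 in cultured Sertoli cells. Markers of other cells were found in the native samples. Of 16 fetal germ cell genes, 16 were above the median in gonad, 14 in immature and 10 in mature Sertoli cells, and of 15 adult germ cell genes, 15 were above it in mature Sertoli cells, with the sperm protamine Prm1 at 12.01 and 12.11. In such mixed samples fewer cells of a type and less RNA per cell cannot be told apart.

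Dnmt1, Uhrf1 and Hells had an E2F motif in an annotated promoter window, and E2F factors are known to drive genes of DNA replication. These promoters are shown for their matches alone. Dnmt3a and Tdg also moved with the replication genes described below (Pearson r 0.913 and 0.841 over 7 group means) and had no match. Whether E2F factors act on any member in these cells was not tested. RefSeq promoter windows of 300 bases on GRCm38.p6, ending 50 bases after the annotated start, were available for all 10 genes, 17 windows in all. The E2F words searched, on both strands, were TTTCCCGC, TTTGGCGC, TTTGCCGC and TTTCGCGC. They were present in 3 of the 17 windows and in 2.26% of all 32851 windows, and the other 7 member genes had no match. The windows follow, 5′ to 3′ on the strand of the gene, with the matches in capitals.
Dnmt1, chr9:20952574-20952873, minus strand: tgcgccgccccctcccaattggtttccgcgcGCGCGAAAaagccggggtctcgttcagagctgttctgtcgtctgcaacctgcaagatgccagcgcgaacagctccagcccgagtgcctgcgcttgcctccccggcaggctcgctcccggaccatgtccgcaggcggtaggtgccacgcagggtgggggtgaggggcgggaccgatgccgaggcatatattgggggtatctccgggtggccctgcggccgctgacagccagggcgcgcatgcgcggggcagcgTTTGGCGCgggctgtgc
Uhrf1, chr17:56304063-56304362, plus strand: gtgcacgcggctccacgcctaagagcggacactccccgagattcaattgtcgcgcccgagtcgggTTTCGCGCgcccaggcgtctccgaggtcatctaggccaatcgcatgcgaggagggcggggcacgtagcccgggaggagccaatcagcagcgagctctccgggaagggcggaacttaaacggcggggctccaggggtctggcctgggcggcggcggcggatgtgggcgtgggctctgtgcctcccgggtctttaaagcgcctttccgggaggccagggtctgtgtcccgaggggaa
Hells, chr19:38930740-38931039, plus strand: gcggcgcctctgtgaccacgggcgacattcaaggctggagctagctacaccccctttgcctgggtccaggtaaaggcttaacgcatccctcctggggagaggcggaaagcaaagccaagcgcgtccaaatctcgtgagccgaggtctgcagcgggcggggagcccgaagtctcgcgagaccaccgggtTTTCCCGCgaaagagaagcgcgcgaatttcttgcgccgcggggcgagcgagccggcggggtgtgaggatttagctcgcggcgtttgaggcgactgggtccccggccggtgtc
The Hells match begins 62 bases before the start, the Uhrf1 match 185 bases before it, and the Dnmt1 matches begin 219 bases before the start and at base 34 after it. Dnmt1 and Uhrf1 have other annotated starts whose windows held none of these words. The 3 windows held 33, 33 and 34 CG pairs, against a median of 7 over all windows. Each E2F word holds a CG pair, so the share over all windows is not a like background for windows rich in them. The windows of Dnmt3l held 6, 4 and 3 CG pairs, where the lower quartile over all windows was 3. Another window of Dnmt1 held 2. Of 5 other motifs searched, the Nr5a1 word CAAGGTCA was in 0 of the 17 windows and in 1.56% of all windows, and TATAAA was in 0 of them and in 13.6% of all. The CCAAT word was in 6 of the 17 windows (37.4% of all), GGGCGG in 13 (35.7%) and CACGTG in 3 (7.15%). A match of letters is a description and does not show binding.

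Uhrf1, Hells and Dnmt1 rose in the cells induced from tail tip fibroblasts, where all of them had been lowest. Uhrf1 was 10.92 and 10.90 on the TTF arrays, 13.31 and 13.20 in MEF, 14.08 and 14.23 in TTF-ieSC, and 14.47 in MEF-ieSC. It was 14.14 and 14.22 in gonad, 13.94 and 14.23 in immature and 13.38 and 13.46 in mature Sertoli cells. TTF lay far below every other array, and the induced cells lay among the gonad and immature Sertoli arrays or just above them. The rise was 3.25 ± 0.10 (log2 difference ± SE, 9.52-fold, adjusted p = 6.49e-09, limma) in TTF-ieSC against TTF and 1.21 ± 0.12 (adjusted p = 2.68e-05) in MEF-ieSC against MEF. The other Uhrf1 feature, at 6.94 to 9.36, rose by 1.87 from TTF (adjusted p = 3.60e-04 over features), while the 0.68 from MEF missed the threshold (adjusted p = 0.121); its MEF arrays were 9.24 and 8.12.

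Hells was 8.72 and 8.62 in TTF, 10.65 and 10.72 in TTF-ieSC, 10.32 and 10.52 in MEF and 10.65 in MEF-ieSC. It was 12.58 and 12.65 in gonad, 12.12 and 12.25 in immature and 10.30 and 10.39 in mature Sertoli cells. The induced cells thus lay above both fibroblasts and well below the gonad and immature Sertoli arrays. The rise from TTF was 2.01 ± 0.08 (adjusted p = 5.43e-08), while from MEF the difference of 0.23 ± 0.10 did not pass (adjusted p = 0.0789); without MEF replicate 2 it was 0.33 (adjusted p = 0.023). Against immature Sertoli cells Hells was lower, with a difference of -1.502 in TTF-ieSC (SE 0.08, adjusted p = 4.57e-07) and of -1.54 in MEF-ieSC (adjusted p = 1.96e-06).

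Dnmt1, the copying enzyme itself, spanned less. It was 10.72 and 10.63 in TTF, 11.61 and 11.43 in MEF, 12.06 and 12.03 in TTF-ieSC and 11.86 in MEF-ieSC. It was 12.46 and 12.41 in gonad, 12.46 and 12.32 in immature and 11.65 and 11.52 in mature Sertoli cells. The groups fell in the order gonad, immature Sertoli, TTF-ieSC, MEF-ieSC, mature Sertoli, MEF and TTF; gonad and immature Sertoli (adjusted p = 0.629), the 2 kinds of induced cells (adjusted p = 0.277) and mature Sertoli and MEF (adjusted p = 0.526) did not differ beyond their spread. Dnmt1 rose by 1.37 ± 0.08 from TTF (adjusted p = 5.86e-07) and by 0.34 ± 0.10 from MEF (adjusted p = 0.0153), and the second call was lost without MEF replicate 2 (0.25, adjusted p = 0.0625).

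**Figure D1:**
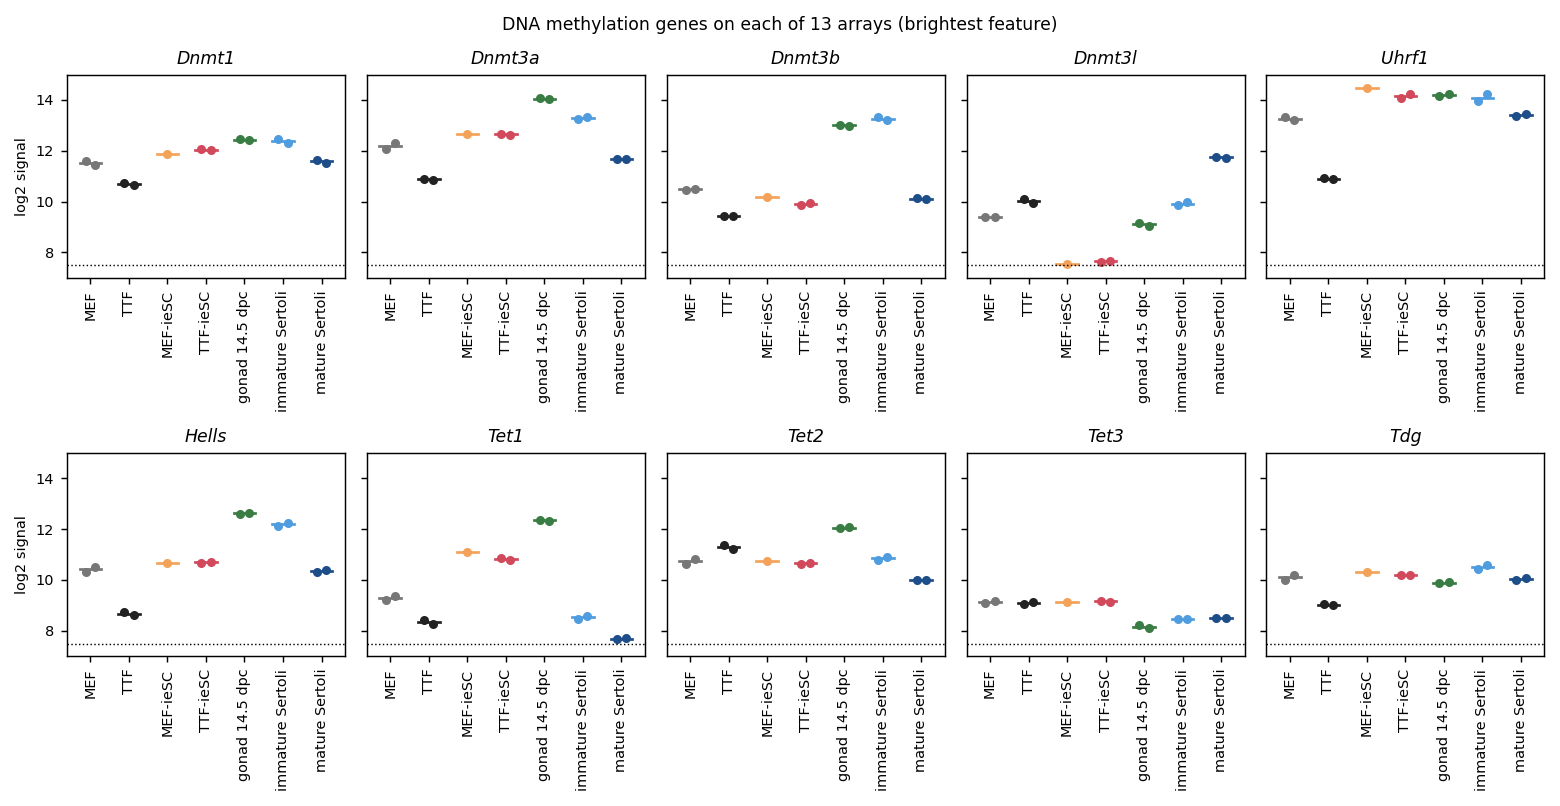
The log2 signal of the brightest feature of each member gene (y axis) is plotted for each array (points) by group (x axis), with the group mean as a bar and the array median of 7.488 as a dotted line. Dnmt3l is lowest in the induced cells, Tet1 is highest in gonad, and Uhrf1 is far lower in TTF than elsewhere.

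Genes of DNA replication moved along with these members. Of 23 tested replication genes, 21 rose and 2 fell in TTF-ieSC against TTF (median 1.86, against 0.06 for all tested genes), with the helicase subunits Mcm3 at 3.43 ± 0.08 and Mcm5 at 3.27 ± 0.09. In MEF-ieSC against MEF 19 rose and 2 fell, with a median of 0.66 against 0.01 for all genes; the licensing factor Cdt1 rose by 1.44 ± 0.08 and the cyclin Ccne1 fell by 1.84 ± 0.08. Of 18 mitosis genes 18 rose from TTF (median 2.62) and 11 rose and 1 fell from MEF (median 0.39). Over the 7 group means, which share arrays and scaling, the mean of the replication list had a Pearson r of 0.976 with Dnmt1, 0.965 with Uhrf1, 0.913 with Hells, 0.913 with Dnmt3a and 0.841 with Tdg. It was 0.664 with Dnmt3b, 0.581 with Tet1, 0.0764 with Tet2, -0.478 with Tet3 and -0.343 with Dnmt3l. Such values were not particular to the replication list, and what part of the other lists serves DNA replication was not examined. The base excision repair list, described below, gave higher values for Dnmt3a (0.993) and Hells (0.941). For Dnmt1 (0.929), Uhrf1 (0.821) and Tdg (0.621) its values were lower. The list of heterochromatin partners was also higher for Dnmt3a (0.927) and Hells (0.920), and lower for Dnmt1, Uhrf1 and Tdg. The share of dividing cells was not measured, and its part in the differences between groups was not tested.

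**Figure D2:**
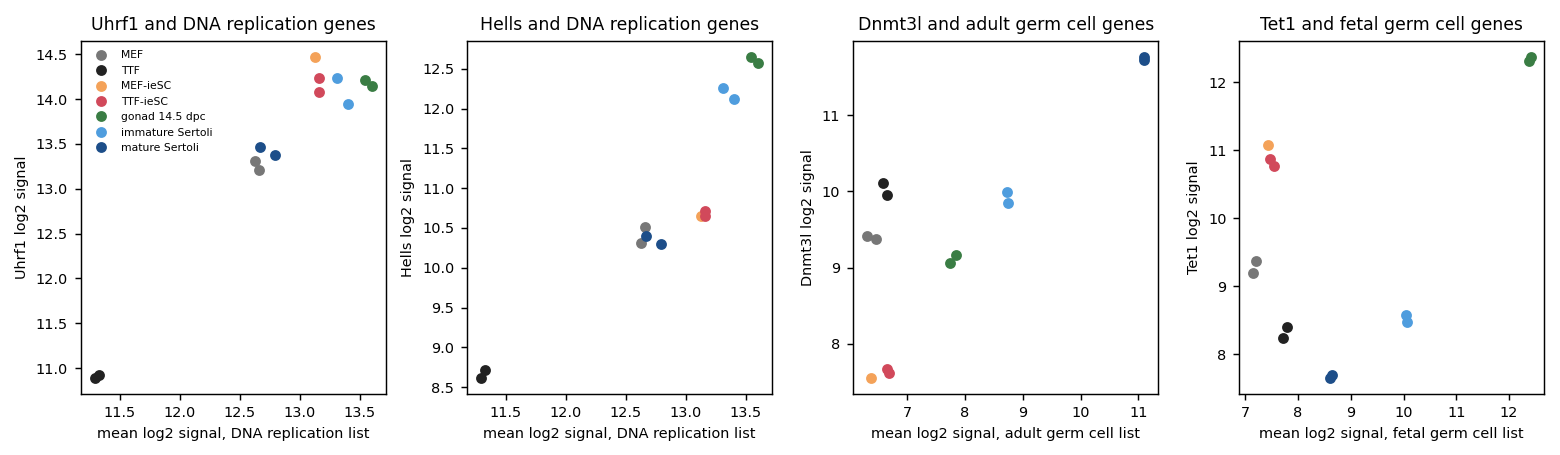
Each point is an array, with the mean log2 signal of a marker list on the x axis and the log2 signal of a member on the y axis. Uhrf1 and Hells are lowest on the TTF arrays, where the replication list is lowest too. The induced cells carry Tet1 of 10.76 to 11.08 with a low fetal germ cell list.

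The genes of new methylation, Dnmt3a, Dnmt3b and Dnmt3l, took separate courses. Dnmt3a was 10.90 and 10.86 in TTF, 12.05 and 12.30 in MEF, 12.65 and 12.64 in TTF-ieSC and 12.67 in MEF-ieSC. It was 14.08 and 14.02 in gonad, 13.27 and 13.31 in immature and 11.67 and 11.69 in mature Sertoli cells. The groups did not overlap, save for the induced cells, which differed from each other by -0.02 ± 0.09 (adjusted p = 0.919). Dnmt3a rose by 1.77 ± 0.08 from TTF (adjusted p = 6.64e-08) and by 0.49 ± 0.09 from MEF (adjusted p = 0.00157). It stayed below gonad, with a difference of -1.40 ± 0.08 in TTF-ieSC and -1.38 ± 0.09 in MEF-ieSC, and below immature Sertoli cells, with -0.64 ± 0.08 and -0.62 ± 0.09.

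Dnmt3b set the gonad and the immature Sertoli cells apart from all other groups. Its signal was 13.02 and 12.98 in gonad and 13.33 and 13.21 in immature Sertoli cells. Elsewhere it was 10.46 and 10.51 in MEF, 9.43 and 9.42 in TTF, 9.87 and 9.93 in TTF-ieSC, 10.17 in MEF-ieSC and 10.13 and 10.09 in mature Sertoli cells. No array of these 5 groups came within 2 log2 units of the gonad and immature arrays. Gonad and immature Sertoli cells also had the most fetal germ cell genes above the array median, 16 and 14 of 16. Mature Sertoli cells had 10. Over the 7 group means, Dnmt3b had a Pearson r of 0.854 with the mean of that list and 0.819 with the Leydig cell list. The part of germ cells and other gonad cells in the Dnmt3b level was not tested. Against immature Sertoli cells the difference was -3.37 ± 0.06 in TTF-ieSC (10.3-fold lower, adjusted p = 3.26e-10) and -3.10 ± 0.07 in MEF-ieSC (adjusted p = 2.48e-09). The inductions moved it little: it rose by 0.48 ± 0.06 from TTF (adjusted p = 5.72e-05) and fell by 0.32 ± 0.07 from MEF (adjusted p = 0.00323). The other 2 features of Dnmt3b kept the gap to immature Sertoli cells, at -2.76 and -2.58 in TTF-ieSC, but their differences of -0.19 and -0.02 from MEF did not pass (adjusted p = 0.134 and 0.844 over features).

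Dnmt3l, the cofactor without catalysis, fell in both inductions to the lowest level of any group. It was 10.11 and 9.95 in TTF and 9.38 and 9.41 in MEF, and 7.62 and 7.67 in TTF-ieSC and 7.56 in MEF-ieSC, close to the array median. It was 9.17 and 9.06 in gonad, 9.85 and 9.99 in immature and 11.76 and 11.72 in mature Sertoli cells. All 3 induced arrays lay below the other 10. The fall was 2.39 ± 0.08 from TTF (difference -2.39, 5.23-fold, adjusted p = 9.63e-09) and 1.84 ± 0.09 from MEF (difference -1.84, adjusted p = 3.32e-07). Because the background of the arrays is not known, these folds depend on it. The gene has 1 feature, and what part of its transcripts that feature reads is not given. In mature against immature Sertoli cells Dnmt3l was higher by 1.82 ± 0.08 (adjusted p = 1.55e-07), the only member called higher there. Adult germ cell genes were higher there too, 11 of 15 with 3 lower (median 3.46). Pgk2, the phosphoglycerate kinase of spermatogenic cells, was 11.71 and 11.85 in mature and 6.42 and 6.57 in immature cultures. The summed signal of that list was 16.46 to 16.54 (log2) in mature and 16.64 to 16.85 in immature Sertoli cells, and 10.69 to 11.00 in fibroblasts and induced cells. The brightest genes dominate that sum. The mean log2 signal of the list was 11.10 in mature and 8.72 to 8.74 in immature cultures, with 15 and 9 of the 15 genes above the array median. Prm1 and Prm2 were 11.52 to 12.11 in mature and 6.98 to 7.99 in immature cultures. The part of germ cells in the Dnmt3l level of the Sertoli cultures was not tested. In MEF and TTF, where Dnmt3l was 9.38 to 10.11, 3 to 5 of the 15 genes lay above the array median, and Prm1 was 7.09 to 8.22.

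The Tet genes went 3 ways. Tet1 was 9.19 and 9.37 in MEF and 8.40 and 8.24 in TTF, against 11.08 in MEF-ieSC and 10.87 and 10.76 in TTF-ieSC. It was 12.37 and 12.31 in gonad, 8.47 and 8.58 in immature and 7.66 and 7.70 in mature Sertoli cells. The induced cells lay above all fibroblast and cultured Sertoli arrays and below the gonad. Tet1 rose by 2.49 ± 0.08 from TTF (5.63-fold, adjusted p = 1.28e-08) and by 1.80 ± 0.10 from MEF (3.47-fold, adjusted p = 6.87e-07). Against immature Sertoli cells it was higher by 2.29 ± 0.08 in TTF-ieSC (adjusted p = 2.90e-08) and by 2.55 ± 0.10 in MEF-ieSC (adjusted p = 7.53e-08). The other 2 features of Tet1 rose in both inductions as well, by 2.08 and 1.42 from TTF and by 1.18 and 1.13 from MEF.

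Tet1 is known from germ cells and pluripotent cells, so the fetal germ cell genes were read beside it. In gonad all 16 lay above the array median, with a summed signal of 17.19 to 17.20 (log2), and Tet1 was highest. In induced cells 6 of 16 did on the MEF-ieSC array and 7 on each TTF-ieSC array, with a summed signal of 12.88 to 13.23, and in fibroblasts 6 to 8 did, with 12.12 to 13.40. Of the 16 genes, 5 rose and 5 fell from TTF (median 0.01), and 6 rose and 3 fell from MEF (median 0.15). The germ cell genes Dazl, Mael and Ddx4 were 4.42 to 6.28 in induced cells, under the array median, and the pluripotency factor Pou5f1 was 6.55 to 6.82. Others were higher: Nanos2, a gene of male germ cells, was 8.00 to 8.16 in induced cells and 5.37 to 6.24 in fibroblasts, its relative Nanos3 was 11.40 to 11.65 against 10.28 to 10.52, and Tdrd1, of the piRNA pathway, was 7.68 to 8.12 against 5.60 to 6.201. Immature Sertoli cells had Dazl at 13.02 and 13.03 with Tet1 at 8.47 and 8.58. The part of germ cells in the Tet1 level of any group was not tested.

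Tet2 was 12.02 and 12.10 in gonad, 11.39 and 11.20 in TTF, 10.61 and 10.84 in MEF, 10.64 and 10.67 in TTF-ieSC and 10.73 in MEF-ieSC. Immature Sertoli cells had 10.79 and 10.90 and mature ones 10.00 and 10.00. The induced cells and MEF overlapped. Tet2 fell by 0.64 ± 0.09 from TTF (difference -0.64, adjusted p = 1.78e-04) while from MEF the difference of 0.00 ± 0.11 did not pass (adjusted p = 0.985). The dimmest of its 3 features, at 7.21 to 8.10, gave -0.17 from TTF and did not pass (adjusted p = 0.21 over features).

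For Tet3 the result depended on the feature read. The brightest feature was 9.03 to 9.18 on all fibroblast and induced arrays, which overlapped, and 8.10 to 8.52 on all native arrays. Its differences of 0.08 ± 0.06 from TTF (adjusted p = 0.26) and -0.01 ± 0.07 from MEF (adjusted p = 0.878) did not pass. The other 2 features were dimmer and rose in both inductions, by 0.94 and 1.26 from TTF (adjusted p = 3.91e-06 and 1.10e-05 over features) and by 0.86 and 0.54 from MEF (adjusted p = 3.89e-05 and 0.00871). These 2 dimmer features lay at 7.34 to 7.86 on the fibroblast arrays, near the array median of 7.488, and at 8.28 to 8.78 on the induced arrays. In mature against immature Sertoli cells the brightest gave 0.05 and the others -1.08 and -0.74. All 3 carry the same transcript accession in the platform annotation, and which exon or end each reads is not given. The mean of the 3 features, as an alternative, rose by 0.76 from TTF and by 0.46 from MEF (adjusted p = 1.51e-04).

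**Figure D3:**
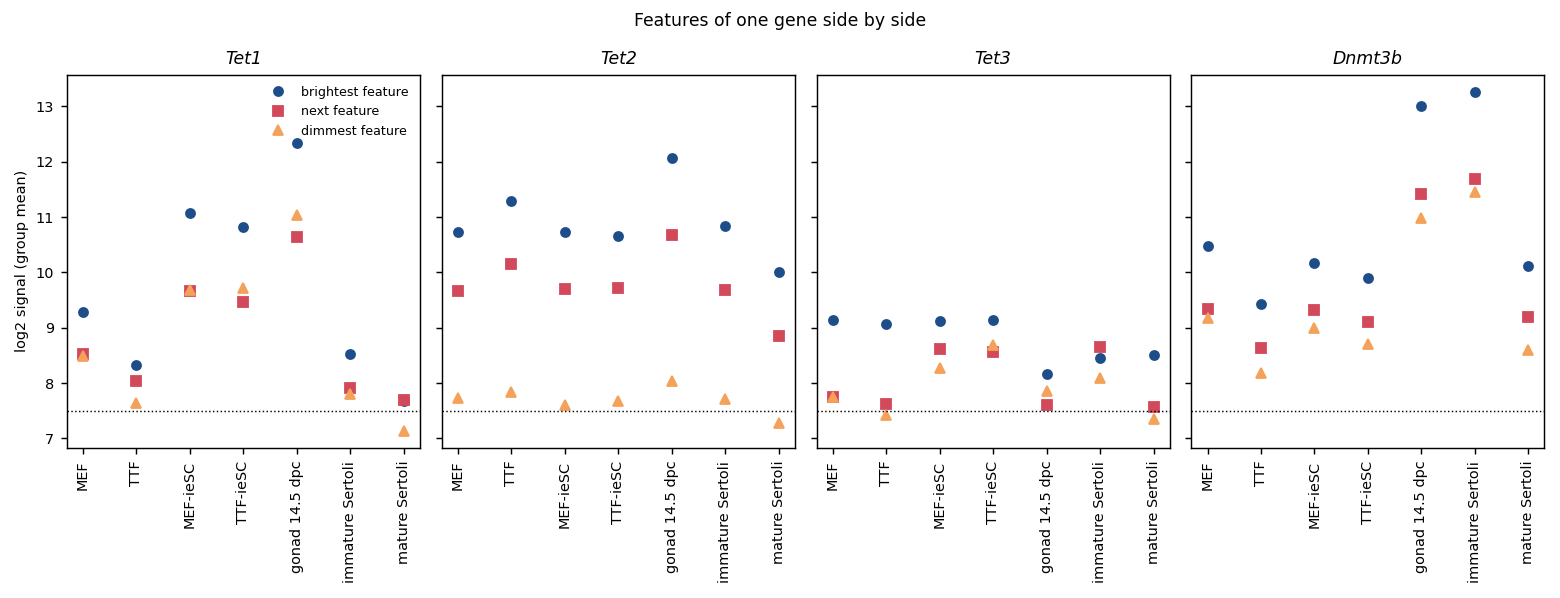
Group means of log2 signal (y axis) are shown by group (x axis) for the 3 features of Tet1, Tet2, Tet3 and Dnmt3b. The features of Tet1 and Dnmt3b keep the same order of groups in outline, while the brightest Tet3 feature is flat between fibroblasts and induced cells and the other 2 are higher in induced cells.

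Tdg, the glycosylase that follows the Tet enzymes, was 9.06 and 8.995 in TTF and 9.88 to 10.57 on all other arrays. It was 10.00 and 10.19 in MEF, 10.30 in MEF-ieSC and 10.18 and 10.21 in TTF-ieSC. Gonad had 9.88 and 9.91, immature Sertoli cells 10.44 and 10.57 and mature ones 9.98 and 10.08. The TTF arrays lay below all others, and the immature Sertoli arrays lay above all others. Tdg was lower in mature than in immature Sertoli cells (difference -0.47 ± 0.08, adjusted p = 6.19e-04, limma). In MEF-ieSC against immature Sertoli cells the difference of -0.21 ± 0.09 did not pass. Tdg rose by 1.17 ± 0.08 from TTF (adjusted p = 1.12e-06), and its other 2 features rose by 1.58 and 0.91. From MEF the difference of 0.20 ± 0.09 did not pass (adjusted p = 0.084), and it was 0.30 (adjusted p = 0.0207) without MEF replicate 2. Mouse has a Tdg pseudogene, Tdg-ps2, whose own feature followed Tdg over the groups (Pearson r 0.981 over 7 group means), so signal shared between the copies could not be separated.

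In all, 9 of 10 members were called in TTF-ieSC against TTF, 7 higher and 2 lower, when 74.7% of all tested genes were called, 39.5% higher and 35.2% lower. In MEF-ieSC against MEF 6 were called, 4 higher and 2 lower, against 67.9% of all genes, 34.3% higher and 33.6% lower. With most genes of the array called, these counts by themselves set the members apart from nothing, and the sizes carry the description. The median difference of the members was 1.27 from TTF and 0.22 from MEF, against 0.06 and 0.01 for all tested genes. Over all genes the shares of rises and falls were close, so their medians do not give the usual size of a change. The call for Dnmt3b from MEF and those for Dnmt1 and Dnmt3a rested on the shared estimate of spread: in a fit on the 3 arrays of these groups alone 3 members were called.

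**Figure D4:**
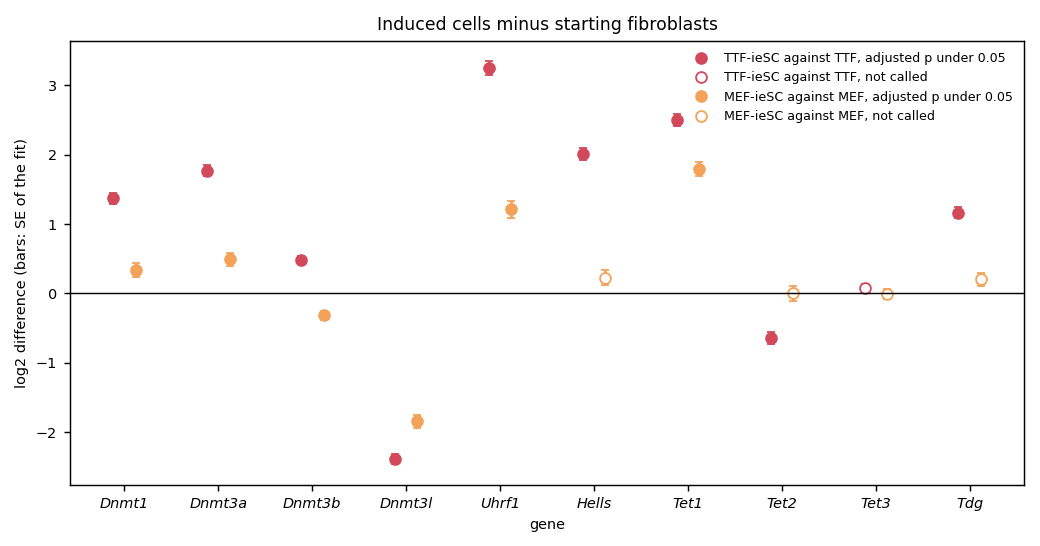
The log2 difference between induced cells and their starting fibroblasts (y axis, bars are standard errors of the fit) is shown for each member (x axis), filled where called. Dnmt3l falls and Tet1 and Uhrf1 rise from both fibroblasts, while Hells, Tdg and Dnmt1 rise mainly from TTF.

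The inductions themselves differed for 9 of the 10 members (7 higher from TTF and 2 lower; 54.1% of all genes were called in this test, 28.9% higher and 25.2% lower), in each case in the direction opposite to that by which the starting cells differed. Tet3 gave 0.09 ± 0.09 and did not pass (adjusted p = 0.439), but with the mean of its features it gave 0.30 (adjusted p = 0.0104), and TTF against MEF then gave -0.17 (adjusted p = 0.0119). The starting cells, TTF against MEF, also had 9 called, 2 higher and 7 lower, against 66.6% of all genes (31.1% higher and 35.5% lower). Uhrf1 was lower in TTF by 2.35 ± 0.10 (difference -2.35), Hells by 1.75 ± 0.08 (-1.75) and Dnmt3a by 1.30 ± 0.08 (-1.30), while Dnmt3l was higher by 0.63 ± 0.08 and Tet2 by 0.57 ± 0.09. In the induced cells, TTF-ieSC against MEF-ieSC, 1 member was called, against 14.3% of all genes (7.53% higher and 6.76% lower). This was Dnmt3b, lower by 0.27 ± 0.07 in TTF-ieSC (difference -0.27, adjusted p = 0.0363), and leaving out TTF-ieSC replicate 1 or 2 (adjusted p = 0.137 and 0.0728), either gonad array (0.0637) or either mature Sertoli array (0.0609) ended the call. The differences of the other 9 ran from -0.31 ± 0.12 for Uhrf1 to 0.18 ± 0.10 for Dnmt1. These 3 comparisons share their arrays.

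Set against the native cells, the induced cells had more Tet1 than immature Sertoli cells and less Dnmt3b, Hells and Dnmt3l. In this comparison 8 members were called in TTF-ieSC, 2 higher and 6 lower (76.8% of all genes, 37.8% higher and 39.0% lower). In MEF-ieSC 8 were called too, 3 higher and 5 lower (70.6%, with 34.4% higher and 36.2% lower). Dnmt3l was lower by 2.28 ± 0.08 in TTF-ieSC (difference -2.28) and by 2.36 ± 0.09 in MEF-ieSC (-2.36). Uhrf1 was called higher in MEF-ieSC, by 0.38 ± 0.12 (adjusted p = 0.0196), which was lost without immature Sertoli replicate 1 (0.24, adjusted p = 0.0651). Tet3 was called higher on its brightest feature, by 0.70 ± 0.06 in TTF-ieSC and 0.68 ± 0.07 in MEF-ieSC. Its other features gave -0.08 ± 0.07 and 0.59 ± 0.11 in TTF-ieSC, and -0.04 ± 0.09 and 0.18 ± 0.14 in MEF-ieSC, so the call was lost when all features had to pass (adjusted p = 0.318 and 0.735).

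Against the uncultured gonad 9 members were called in TTF-ieSC (79.7% of all genes, 38.2% higher and 41.5% lower) and 9 in MEF-ieSC (75%, 35.9% higher and 39.1% lower), with 2 higher and 7 lower in each. In TTF-ieSC the difference was -1.52 ± 0.08 for Tet1 and -1.93 ± 0.08 for Hells. Uhrf1 differed by -0.02 ± 0.10 in TTF-ieSC (adjusted p = 0.845) and by 0.29 ± 0.12 in MEF-ieSC (adjusted p = 0.0548). The latter was called, at adjusted p of 0.0163 to 0.0418, without either immature Sertoli array and under 6 other settings, the mean of features (0.60) among them. Scaling on housekeeping genes gave all tested genes a median of -0.35 and -0.42 in these comparisons (-0.03 and -0.04 as deposited), with Uhrf1 at -0.34 in TTF-ieSC (adjusted p = 0.0203). Under that scaling the Tdg difference, 0.30 ± 0.08 in TTF-ieSC, became -0.02 (adjusted p = 0.865), and that of 0.40 ± 0.09 in MEF-ieSC (adjusted p = 0.00393) became 0.0175 (adjusted p = 0.9).

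**Figure D5:**
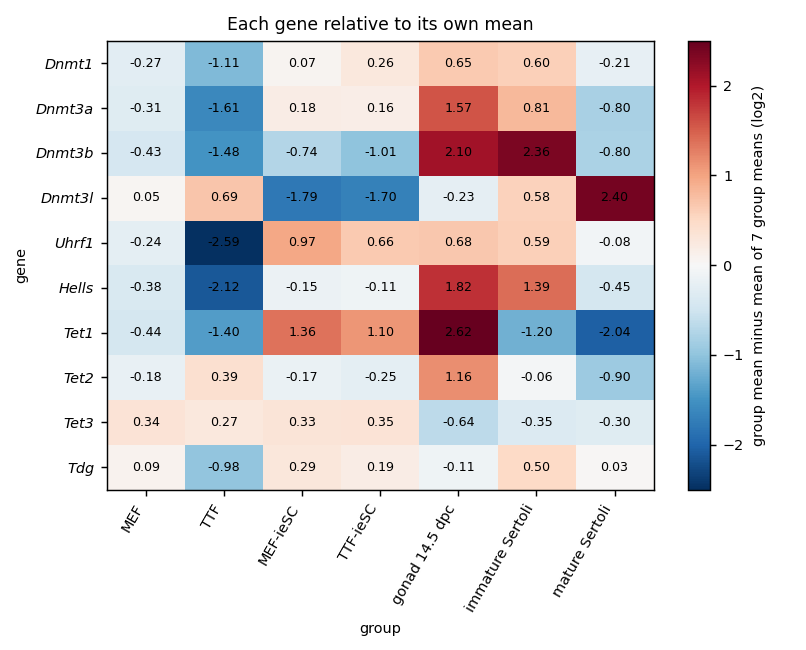
Each cell gives a group's mean log2 signal minus the mean of the 7 group means of that gene, with genes in rows and groups in columns. TTF is the lowest group for 6 of 10 members and gonad the highest for 5, and Dnmt3b stands high in gonad and immature Sertoli cells alone. The same shares over all tested genes were not computed, so these counts do not set the members apart.

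Most members were lower in mature than in immature Sertoli cells. In mature against immature Sertoli cells 9 were called, 1 higher and 8 lower, against 68.5% of all genes (28.9% higher and 39.6% lower). Dnmt3b was lower by 3.16 ± 0.06 (difference -3.16, adjusted p = 1.79e-09), Hells by 1.84 ± 0.08 (-1.84) and Dnmt3a by 1.61 ± 0.08 (-1.61). Replication genes were lower there as well, 19 of 23 with 2 higher (median -0.80), while of 18 mitosis genes 9 were lower and 3 higher (median -0.18). In immature Sertoli cells against gonad 4 members were higher and 4 lower (70.5% of all genes were called, 32.6% higher and 37.9% lower). Tet1 was lower by 3.81 ± 0.08 (difference -3.81, adjusted p = 2.82e-09), the widest of these, with fetal germ cell genes lower for 13 of 16 (median -2.40) and Leydig cell genes for 6 of 6. Dnmt3b was higher by 0.27 ± 0.06 and Tet3 by 0.30 ± 0.06, and housekeeping scaling, which gave all tested genes a median of -0.38, turned these to -0.08 and -0.05. In mature Sertoli cells against gonad 9 were called, 2 higher and 7 lower (79.8% of all genes, 35.6% higher and 44.3% lower), with Tet1 at -4.66 ± 0.08 and Dnmt3l at 2.63 ± 0.08. The call for Tet3, 0.35 ± 0.06, turned to -0.12 under housekeeping scaling and to -0.07 with the mean of its features.

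Genes that work with the members were read from 6 lists. Of 15 base excision repair genes, which finish what Tdg begins, 12 rose and 2 fell from TTF (median 0.81) and 9 rose and 4 fell from MEF (median 0.37). The flap endonuclease Fen1 rose by 2.16 ± 0.08 and 1.18 ± 0.10, and the glycosylase Neil2 went the other way, by -4.19 ± 0.07 and -2.29 ± 0.09. Of 18 heterochromatin partners 12 rose and 2 fell from TTF (median 0.55), and 7 rose and 5 fell from MEF (median 0.23). Cdca7, which partners with Hells, rose by 2.28 ± 0.09 from TTF. Dppa3, which keeps Uhrf1 from chromatin in oocytes, was 15.49 and 15.53 in gonad and 3.21 to 7.51 on every other array, near or under the array median.

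Of 16 genes of the methyl donor cycle 11 rose and 3 fell from TTF (median 0.69) and 8 rose and 3 fell from MEF (median 0.25). Ahcy, which clears the methylation product S-adenosylhomocysteine, rose by 1.76 ± 0.06 from TTF, and Cbs, which drains homocysteine from the cycle, rose by 1.88 ± 0.07 and 2.41 ± 0.08. Nnmt, which spends methyl groups on nicotinamide, was higher by 5.56 ± 0.09 in mature than in immature Sertoli cells. Of 10 Tet cofactor genes 4 rose and 4 fell from TTF (median 0.06), and 5 rose and 2 fell from MEF (median 0.21). Idh2, a mitochondrial enzyme that makes the oxoglutarate the Tet enzymes use, rose by 3.02 ± 0.09 and 1.64 ± 0.11. Of 5 tested Gadd45 and deaminase genes 2 rose and 3 fell from TTF, and 1 rose and 2 fell from MEF. Gadd45g, a stress gene linked to repair-based demethylation, fell by 5.91 ± 0.08 (difference -5.91) and by 6.94 ± 0.09 (-6.94). Of 8 methyl-CpG readers 1 rose and 3 fell in each induction, with medians of -0.10 and -0.05. Zbtb4, which binds methylated CG pairs, fell by 1.63 ± 0.06 from TTF (difference -1.63), and Zbtb38, another reader of this kind, by 0.58 ± 0.09 (-0.58).

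The genes whose 7 group means followed each member most closely, among 11559 tested genes spanning 1 log2 unit or more, were as follows. Those of Uhrf1 were Mcm3 (Pearson r 0.994), Depdc1b and Chaf1b, a subunit of the replication-coupled histone chaperone. Those of Hells were the repair gene Brca2 (0.995), Cdca7 and Cpsf4, and those of Dnmt1 were Fancd2 (0.994), the polymerase gene Pola1 and Rbm14. Palb2 (0.998), Pold1 and Ints7 were nearest to Dnmt3a, and Krt17 (0.992), Spic and Mrps5 to Dnmt3b. Dnmt3l was followed by Maats1 (0.991), Rap2a and Akr1c14, and Tet1 by Dmgdh (0.991), Rgl2 and Tfap4. Nearest to Tet2 were Bcas3 (0.986), Mettl21c and Vps9d1, to Tet3 Prss33 (0.995), Syne1 and Nkx3-2, and to Tdg Tgfb2 (0.995), Ppat and Tdg-ps2. With 7 points that share arrays and scaling, these likenesses describe the data and carry no test.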

How the data were processed

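RNA from 13 samples in 7 groups was read on single-colour Cy3 arrays. The authors deposited log2 signals already brought to nearly the same distribution on every array. The submitters' processing notes name limma without version or role. How background, any floor and detection flags were handled is not stated there. Arrays have no read depth, and precision is limited by their number. Gene symbols came from the platform annotation, updated through a RefSeq gene table (GRCm38.p6): 31465 of 62976 features had 1 symbol, 29036 of them matched by accession. Each gene was represented by its brightest feature, judged on the mean of all arrays. Genes whose signal exceeded the array median of 7.488 on 2 or more arrays, 16658 in all, entered 1 fit of 7 groups. The fit used lmFit and eBayes (limma 3.58.1, R 4.3.3) with two-sided tests. Benjamini-Hochberg adjustment ran over all tested genes, with calls at an adjusted p under 0.05. The fit had 6 residual degrees of freedom, and MEF-ieSC, with 1 array, borrowed its spread from the remaining groups. A parallel fit took 25285 features singly, with p adjusted over features. The fit was tested on simulated data. The members and the 16 gene lists were chosen with earlier results of these data known. Named genes were the members, the 3 genes most like each, and the 2 most changed called genes of a list. Defining markers were named with their levels. Alternatives covered scaling, filters, feature choice, the variance model and leaving out arrays.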

Additional observations from a re-analysis of the deposited data

Results flagged for a closer look

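The change from fibroblast to induced cell differed between TTF and MEF for 9 members in a direct test of that difference (the change from TTF minus the change from MEF, limma, all 13 arrays in the fit). Uhrf1 gave 2.04 (adjusted p = 1.22e-05), Hells 1.78 (1.08e-05), Dnmt3a 1.28 (4.37e-05), Dnmt1 1.03 (2.32e-04), Tdg 0.96 (2.35e-04), Dnmt3b 0.79 (1.16e-04) and Tet1 0.70 (0.00239), all log2 differences and all higher from TTF. Tet2 gave -0.65 (adjusted p = 0.00494) and Dnmt3l -0.55 (adjusted p = 0.00527). Each value equals the difference between the induced cells minus that between the starting fibroblasts, and the starting cells differed in all 9. When all features of a gene had to pass, Uhrf1 (adjusted p = 0.0555) and Tet2 (0.85) were no longer called. The MEF side rests on 1 induced array. No group held enough arrays for a search for outlying samples.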

How the results depend on the processing

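Of 2806 alternative values for 120 gene results, 2697 kept their side of the threshold with no called value changing sign, 74 lost a call, 26 gained one, and in 9 a value called in either fit changed sign. Quantile normalization changed no call among the 120. It could change little, because the deposited values already had nearly the same distribution on every array. Requiring a log2 difference of 1 or more left 3 members in MEF-ieSC against MEF, 4 in the difference between the inductions, 5 in TTF against MEF, 0 in TTF-ieSC against MEF-ieSC, 4 each against immature Sertoli cells in TTF-ieSC and MEF-ieSC, 4 in mature against immature Sertoli cells and 2 in immature Sertoli cells against gonad. A fit on only the groups compared left 3 in MEF-ieSC against MEF and 0 in TTF-ieSC against MEF-ieSC. The latter was also 0 with housekeeping scaling, with no filter and when all features of a gene had to pass, and 0 to 1 when single arrays were left out. Housekeeping scaling turned Tet3 to -0.117 in mature Sertoli against gonad and to -0.0539 in immature Sertoli against gonad, Dnmt3b to -0.0847 there, and Tdg to -0.0190 in TTF-ieSC against gonad and -0.33 in mature Sertoli against gonad. The mean of features turned Tet3 to 0.46 in MEF-ieSC against MEF, -0.59 in mature against immature Sertoli and -0.0671 in mature Sertoli against gonad, and requiring all features gave -0.0444 in the last. The cause was not tested. Leaving out single arrays moved 18 of 1510 values across the threshold and changed the sign of 0 called values; differences that did not pass and lay near 0 could change sign, such as Uhrf1 in TTF-ieSC against gonad (-0.10 to 0.05). A filter at the 75th percentile left 96 of the 120 results. The MEF-ieSC array could not be left out of its own comparisons. No paired analysis was possible because the labels carry no replicate numbers. Signal over background is unknown, so folds of dim features are uncertain.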
